A study of Danio rerio with 6 samples.

Results

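Oxidative phosphorylation subunits are the proteins of the respiratory chain and of ATP synthase. Their genes were taken from the deposited counts by symbol: every Ensembl identifier whose symbol starts with mt-nd, mt-co, mt-cyb, mt-atp, ndufa, ndufb, ndufc, ndufs, ndufv, uqcr, cox4, cox5, cox6, cox7, cox8 or atp5, together with sdha, sdhb, sdhc, sdhda and cyc1. This found 116 of 26375 identifiers, of which 13 are encoded by the mitochondrial genome and 103 by the nucleus. By complex, 45 belonged to complex I, 3 to complex II, 10 to complex III, 27 to complex IV and 20 to complex V. The symbol starts also took in 8 assembly factors of complex I, 2 inhibitors of ATP synthase and the supercomplex factor cox7a2l. No identifier was found under sdhda, and 2 identifiers listed as sdhd fell outside the wording of the rule and were not counted.

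The libraries were 3 of mettl16-/- zebrafish embryos and 3 of siblings, all untreated and at 3 days post fertilization (dpf). The mettl16-/- line was generated with CRISPR/Cas9, and the siblings are labelled mettl16+/+. RNA came from tails, which the labels call the trunk region and which include the caudal hematopoietic tissue, the site where blood stem cells expand. Tails of many embryos were pooled for each library, so the p-values measure the spread between these pools. In such bulk tissue, fewer cells of a type and less RNA per cell cannot be told apart.

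Oxidative phosphorylation moves electrons from NADH and succinate through complexes I to IV to oxygen, and ATP synthase, or complex V, uses the proton gradient that this builds. The chain is assembled from products of both genomes: mitochondrial DNA encodes core subunits of complexes I, III, IV and V, the nucleus encodes the others and all of complex II, and nuclear proteins are imported into the organelle. In a zebrafish tail at this age the tissue is rich in muscle, skin and notochord, and muscle is known for its dense mitochondria.

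The targeted gene was read first as a check of the labels. mettl16 had 64, 59 and 86 counts in mettl16-/- libraries, against 104, 120 and 117 counts in sibling libraries. The groups did not overlap (exact permutation test, two-sided p = 0.10, the smallest that 3 libraries against 3 allow). In the edgeR test used below mettl16 itself was not called, with a log2 fold change of -0.63 ± 0.21 (SE) and an adjusted p of 0.9999. With the replicate number kept as a block, its edgeR adjusted p was 0.0683. Library totals lay between 16239791 and 18020239 counts in mettl16-/- libraries and between 16615515 and 18541402 counts in sibling libraries. Of the skeletal muscle markers looked up, 6 of 9 were matched and none of these was at 0, and their summed level ranged from 95340 to 107100 CPM (counts of a gene relative to the TMM-scaled library total) in mettl16-/- libraries and from 80640 to 104300 CPM in sibling libraries.

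No member passed the test between mettl16-/- and siblings. In edgeR's quasi-likelihood test with adjustment over 18487 genes, 0 of the 110 members tested had an adjusted p under 0.05, where 0.124% of all genes did. At an unadjusted p under 0.05 the count was 0 in edgeR and 0 in DESeq2, where 2.17% of all genes passed in edgeR and 1.61% in DESeq2. The replicate number was also kept as a block, because libraries of the same number deviated together in these data. The labels do not say what a number marks. With this block 0 members were called in edgeR, against 1.04% of all genes. At an unadjusted p under 0.05, 20 members passed, all higher in mettl16-/-, where 9.2% of all genes passed in either direction and 4.85% passed and were higher. Of these 20, 8 were among the 13 mitochondrial members (61.5%) and 12 among the 97 nuclear members tested (12.4%). With library totals in place of TMM the same blocked fit gave 7 such members, 2 mitochondrial and 5 nuclear. Of the 7, 5 were higher and 2 lower, beside 2.48% of all genes higher and 8.75% lower. Many members of the same genome rose and fell together across libraries, so counts of members here and below are not counts of independent observations. The remaining 6 members fell under the filter on low counts: ndufa9b, ndufb1, ndufa4l2, ndufa4l2b, and the copies of cox5b (ENSDARG00000113254) and cox7a2 (ENSDARG00000110700) that share a symbol with an identifier of more counts. ndufa4l2b had 0 counts in all 6 libraries, which allows up to 3 counts in each.

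The members of both genomes had mostly small positive fitted values, within the spread between libraries and dependent on the scaling. The median fitted log2 fold change, mettl16-/- over siblings, was 0.10 over the 13 mitochondrial members and 0.05 over the 97 nuclear members tested, beside -0.0032 over all genes tested. All 13 mitochondrial members and 79 of the 97 nuclear members had a fitted value above 0, where 49.1% of all genes did, but with library totals in place of TMM the nuclear count was 49 of 97, the nuclear median 0.0017 and the share of all genes 34%, while all 13 mitochondrial members had values above 0 with a median of 0.05. The nuclear median was also 0.0024 without mettl16-/- replicate 3 and 0.0063 without sibling replicate 2, and 0.12 without mettl16-/- replicate 2. Without replicate 1, 2 or 3 of both groups it was 0.070, 0.055 and 0.046. Scaling by library totals moved the median of all genes to -0.06, and relative to it the medians of 0.11 and 0.06 were those of the TMM fit. Within each replicate number and with TMM, 10 of 13 mitochondrial and 42 of 97 nuclear members were higher in mettl16-/- in all 3 comparisons, against 15% of all genes. In replicates 1, 2 and 3 the TMM factor was 0.986, 0.9977 and 0.9605 in mettl16-/-, against 1.0022, 1.05 and 1.0058 in siblings. A lower factor raises the CPM of a library, and these counts were not made with library totals. The 6 muscle markers also had fitted values above 0, with either scaling, and a median of 0.11 with TMM, and actc1b, the actin of muscle fibres, passed with the replicate block (edgeR, adjusted p = 0.0424). The part of muscle content in the members' values was not tested.

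**Figure D1:**
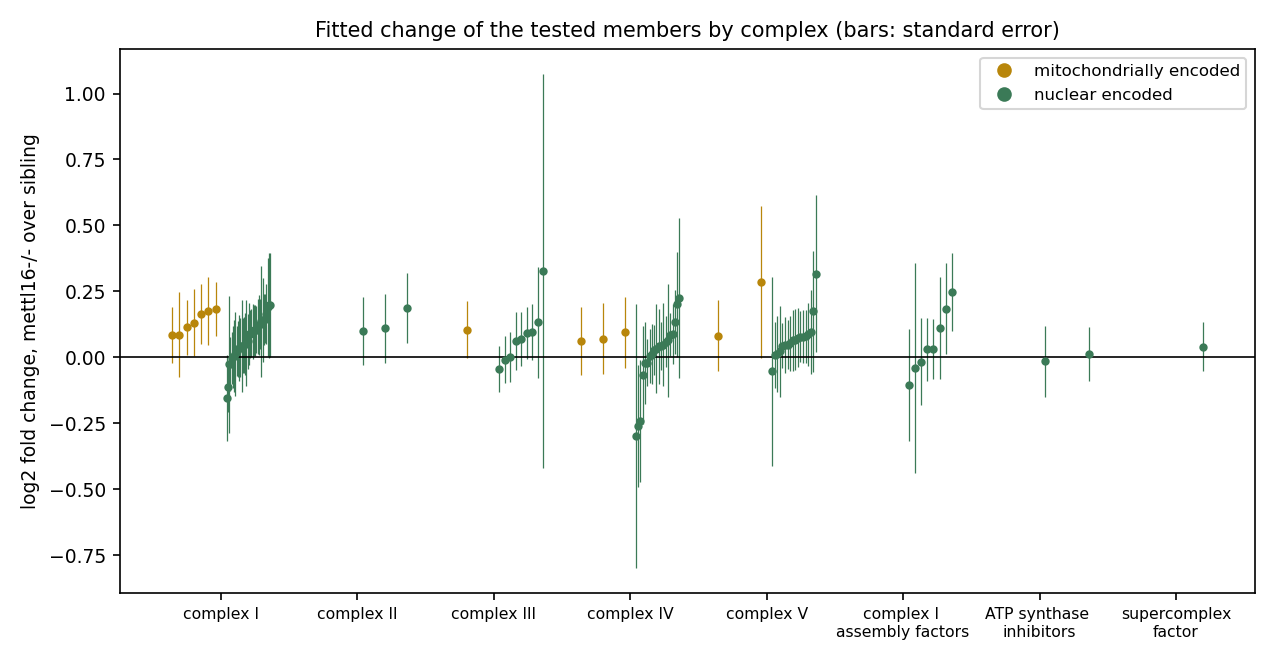
Fitted log2 fold change of mettl16-/- over siblings for the 110 tested members, by complex, with mitochondrially encoded members in ochre and nuclear members in green (points: edgeR estimate, bars: 1 standard error). The 13 mitochondrial points lie between 0.06 and 0.29 and the 97 nuclear points between -0.30 and 0.33, and 0 members passed the test.

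The mitochondrial genome encodes 7 subunits of complex I, which form its membrane arm and pump protons. Among them mt-nd5 had the smallest p of any member. Its level was 952, 1119 and 1041 CPM in mettl16-/- replicates 1, 2 and 3, against 868, 1007 and 865 CPM in sibling replicates 1, 2 and 3. Each mettl16-/- library was above the sibling library of its own number, but sibling replicate 2 lay above mettl16-/- replicate 1, so the groups overlapped. The log2 fold change was 0.18 ± 0.10 (SE, n = 3 per group, 95% interval -0.04 to 0.41, edgeR adjusted p = 0.9999). With the replicate block it was 0.18 ± 0.05 (SE) with an edgeR adjusted p of 0.0521, the lowest of any member in any fit. Within the replicate numbers the log2 difference of mt-nd5 was 0.13, 0.15 and 0.27.

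The other complex I genes of the mitochondrion had smaller or less even differences. mt-nd1 measured 1454, 2028 and 1789 CPM in mettl16-/- libraries and 1309, 1910 and 1749 CPM in sibling libraries. mt-nd2 measured 1491, 1789 and 1593 CPM in mettl16-/- libraries and 1358, 1604 and 1542 CPM in sibling libraries. mt-nd4 measured 1331, 1691 and 1581 CPM in mettl16-/- libraries and 1180, 1545 and 1479 CPM in sibling libraries. For these 3 genes replicate 1 was the lowest library of each group, and the gap between replicates 1 and 2 within a group exceeded the gap between groups. Their log2 fold changes were 0.09 ± 0.16, 0.11 ± 0.10 and 0.13 ± 0.13 (SE). With the replicate block they were 0.09 ± 0.05, 0.11 ± 0.05 and 0.13 ± 0.04 (SE), with edgeR adjusted p of 0.568, 0.402 and 0.233. The short genes mt-nd3 and mt-nd4l had the opposite low point. mt-nd3 measured 103.5, 85.5 and 106.5 CPM in mettl16-/- libraries and 90.4, 89.8 and 98.4 CPM in sibling libraries. mt-nd4l measured 85.8, 74.1 and 85.8 CPM in mettl16-/- libraries and 79.3, 63.2 and 77.0 CPM in sibling libraries. Both were lowest in replicate 2 of each group, with log2 fold changes of 0.08 ± 0.11 and 0.16 ± 0.11 (SE). With the replicate block these were 0.08 ± 0.06 and 0.17 ± 0.06 (SE), with edgeR adjusted p of 0.773 and 0.270. mt-nd6, which lies on the opposite strand from the other 12 genes, measured 79.3, 107.3 and 108.7 CPM in mettl16-/- libraries and 80.2, 89.6 and 91.4 CPM in sibling libraries. Its difference appeared in replicates 2 and 3 and not in replicate 1. The log2 fold change of mt-nd6 was 0.18 ± 0.13 (SE), and 0.17 ± 0.06 (SE) with the replicate block (edgeR adjusted p = 0.307). Whether reads were counted by strand is not given in the sources used here, so mt-nd6 and the reads of its neighbours on the other strand, and likewise mt-nd4l with mt-nd4 and mt-atp8 with mt-atp6, which overlap, may share counts.

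Complex III takes mt-cyb, its cytochrome b, from the mitochondrion. mt-cyb measured 2463, 3014 and 2811 CPM in mettl16-/- libraries and 2297, 2742 and 2670 CPM in sibling libraries, a log2 fold change of 0.10 ± 0.11 (SE). With the replicate block it was 0.10 ± 0.04 (SE), with an edgeR adjusted p of 0.441. Complex IV takes its catalytic core, mt-co1, mt-co2 and mt-co3. mt-co1, which holds the site where oxygen is reduced, measured 7112, 9331 and 9099 CPM in mettl16-/- libraries and 6667, 8528 and 8720 CPM in sibling libraries. mt-co2, the subunit that accepts electrons from cytochrome c, measured 2391, 2930 and 2923 CPM in mettl16-/- libraries and 2178, 2936 and 2781 CPM in sibling libraries. mt-co3 measured 2740, 3593 and 3274 CPM in mettl16-/- libraries and 2534, 3445 and 3165 CPM in sibling libraries. In all 3 genes replicate 1 was the lowest library of each group. Without the block, the log2 fold changes of 0.09 ± 0.14, 0.06 ± 0.13 and 0.07 ± 0.14 (SE) were below their standard errors. With the replicate block they were 0.09 ± 0.04, 0.07 ± 0.04 and 0.07 ± 0.04 (SE), above their standard errors. The edgeR adjusted p under the block were 0.477, 0.729 and 0.668.

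ATP synthase takes mt-atp6, part of the proton channel, and mt-atp8. mt-atp6 measured 1673, 2162 and 1903 CPM in mettl16-/- libraries and 1526, 2107 and 1786 CPM in sibling libraries. mt-atp8 measured 19.8, 12.9 and 12.2 CPM in mettl16-/- libraries and 17.6, 10.6 and 8.51 CPM in sibling libraries. mt-atp8 had the largest fitted value of the 13, a log2 fold change of 0.29 ± 0.29 (SE, 95% interval -0.38 to 0.95), and it was highest in replicate 1 of each group, where most mitochondrial members were lowest. With the replicate block mt-atp8 was at 0.30 ± 0.11 and mt-atp6 at 0.09 ± 0.04 (SE), with edgeR adjusted p of 0.319 and 0.578. The fitted values of mt-nd1, mt-co1, mt-co2, mt-co3 and mt-atp6 were below 0 when sibling replicate 1 was left out, and the mitochondrial median was then 0.03. It was 0.04 without mettl16-/- replicate 2 and 0.17 without mettl16-/- replicate 1 or sibling replicate 2. Without replicate 1, 2 or 3 of both groups, which kept the numbers equal, the median was 0.10, 0.11 and 0.12.

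**Figure D2:**
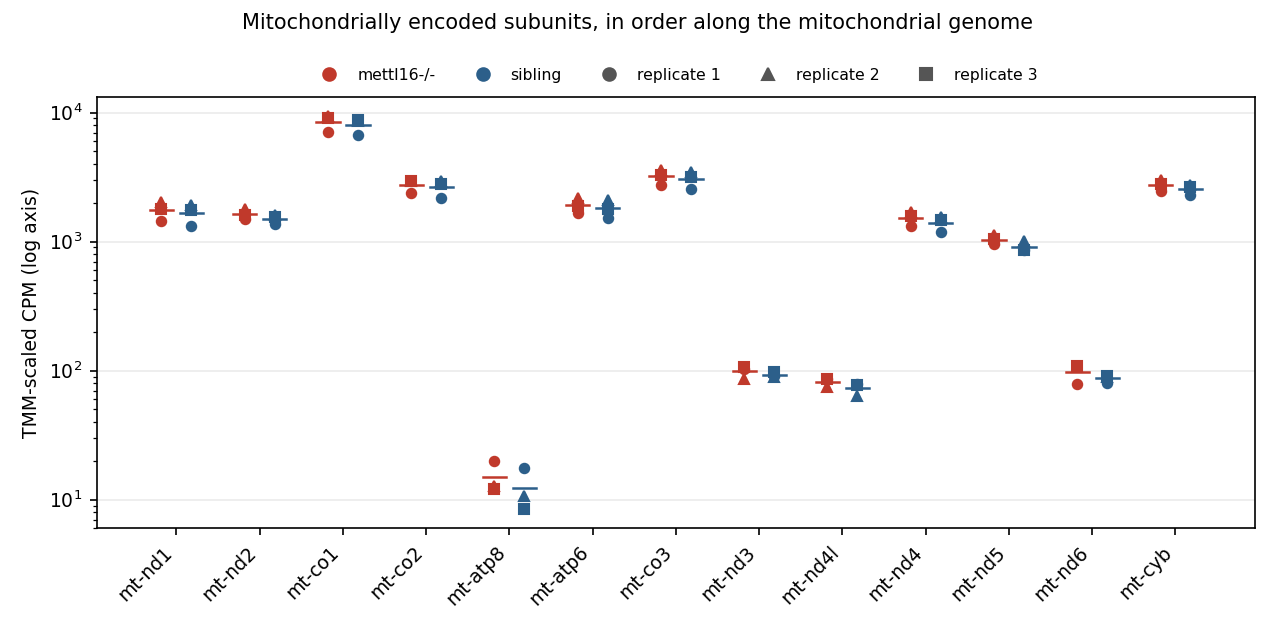
Levels of the 13 mitochondrially encoded members in TMM-scaled CPM on a log axis, in their order along the mitochondrial genome, for mettl16-/- (red) and sibling (blue) libraries, with a symbol for each replicate number and a line for each group mean. The groups overlap for each gene, with mt-nd5 at 952 to 1119 CPM in mettl16-/- libraries and 865 to 1007 CPM in sibling libraries.

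The levels followed the replicate number more than the genotype. The 13 mitochondrial members together took 2.16%, 2.79% and 2.53% of the counts of mettl16-/- replicates 1, 2 and 3, and 2.02%, 2.74% and 2.52% of those of sibling replicates 1, 2 and 3. The means were 2.49% ± 0.317 in mettl16-/- and 2.42% ± 0.366 in siblings (SD, n = 3 each). The 103 nuclear members took 1.72%, 1.65% and 1.87% of the counts in mettl16-/- libraries and 1.72%, 1.62% and 1.85% in sibling libraries. The mitochondrial share was lowest in replicate 1 and highest in replicate 2 of each group, and the nuclear share was lowest in replicate 2 and highest in replicate 3.

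The contrast of the genomes was the log2 ratio of summed mitochondrial to summed nuclear counts in each library. These sums rest mainly on abundant genes. mt-co1 alone took 0.67% to 0.93% of all counts of a library, and atp5f1a and atp5f1b had the most counts among nuclear members. It was 0.33, 0.75 and 0.43 in mettl16-/- replicates 1, 2 and 3, and 0.24, 0.75 and 0.44 in sibling replicates 1, 2 and 3. The ratio averaged 0.50 ± 0.22 in mettl16-/- and 0.48 ± 0.26 in siblings (SD, n = 3 each), a difference of 0.03 that was smaller than the spread within each group. By replicate number the difference was 0.09 in replicate 1, -0.0029 in replicate 2 and -0.0091 in replicate 3. It was -0.098 without mettl16-/- replicate 2, -0.095 without sibling replicate 1 and 0.16 without sibling replicate 2. Each of these removals left the replicate numbers unequal between the groups, and the ratio itself varied with the number. The difference was -0.006 without replicate 1 of both groups, 0.040 without replicate 2 and 0.043 without replicate 3. Its direction thus rested on replicate 1.

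**Figure D3:**
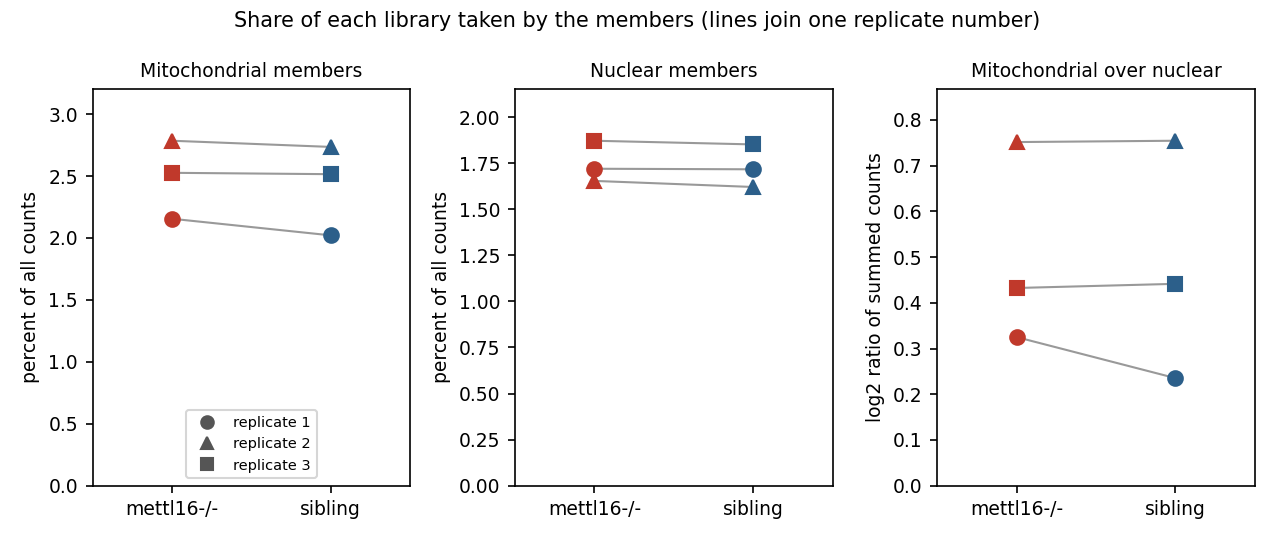
Share of all counts taken by the 13 mitochondrial members (left) and the 103 nuclear members (middle), in percent, and the log2 ratio of their summed counts (right), for mettl16-/- and sibling libraries, with lines joining libraries of the same replicate number. The ratio is near 0.75 in replicate 2 of each group. It is at 0.43 in mettl16-/- and 0.44 in the sibling of replicate 3, and at 0.33 and 0.24 in replicate 1. The nuclear lines lie close together, between 1.62% and 1.87%.

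Gene by gene, 9 of 13 mitochondrial members were lowest in replicate 1 of both groups, where 21.9% of all genes were, and 8 of 13 were highest in replicate 2 of both groups, where 14.4% were. Of the nuclear members, 58 of 97 were lowest in replicate 2 of both groups, where 13.6% of all genes were, and 48 of 97 were highest in replicate 3 of both groups, where 20.3% were. In a test of the replicate number added after the values were seen (edgeR, adjusted p under 0.05), 12 of 13 mitochondrial and 54 of 97 nuclear members passed, where 24.7% of all genes did, and mt-nd3 was the mitochondrial member that did not. The low nuclear values in replicate 2 were plain in cox7b and atp5md. cox7b, a subunit of complex IV, measured 102.9, 66.9 and 102.2 CPM in mettl16-/- libraries and 100.9, 64.0 and 95.1 CPM in sibling libraries, and atp5md measured 18.1, 9.41 and 18.1 CPM in mettl16-/- libraries and 21.0, 9.05 and 17.3 CPM in sibling libraries. These 2 genes were chosen after their values were seen. The labels do not say what a replicate number marks. The summed muscle markers were also lowest in replicate 2, with 95340 CPM in the mettl16-/- library and 80640 CPM in the sibling library. Of these sums, actc1b alone gave 56440 CPM and 46600 CPM. Like actc1b, ckma and pvalb2 were lowest in replicate 2 of each group. smyhc1 and pvalb1 were lowest in replicate 3 of each group, and myhz2 in replicate 3 of mettl16-/- and replicate 2 of siblings. The part of the muscle markers in the nuclear pattern was not tested.

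**Figure D4:**
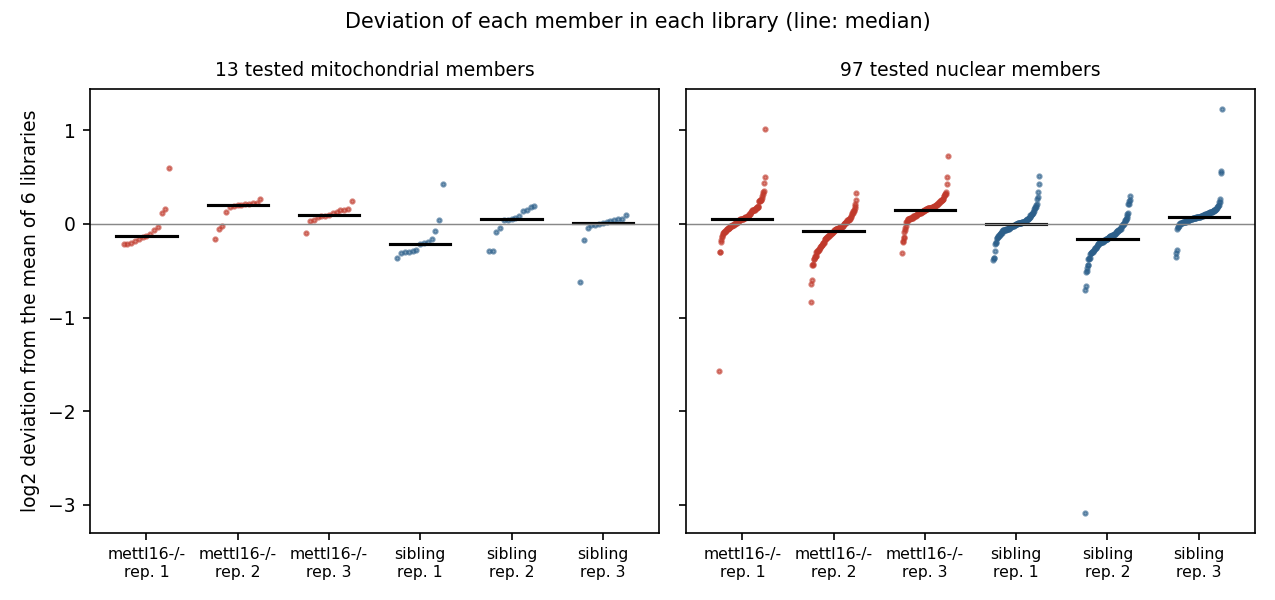
Log2 deviation of each tested member from its mean over the 6 libraries, for 13 mitochondrial members (left) and 97 nuclear members (right), with mettl16-/- libraries in red, sibling libraries in blue and the median as a line. The mitochondrial medians are lowest in replicate 1 of each group (-0.13 in mettl16-/- and -0.21 in siblings) and the nuclear medians in replicate 2 (-0.07 in mettl16-/- and -0.16 in siblings). The lowest point is uqcrb, with 1 count in sibling replicate 2.

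Of the nuclear subunits of complex I, which carry its electron path and its accessory shell, 31 of 36 tested had a fitted value above 0 with a median of 0.07, and none was called. The counts by complex here and below are from the TMM fit, where 49.1% of all genes had a value above 0. With library totals the count over all nuclear members was 49 of 97, beside 34% of all genes. ndufs1, the large iron-sulfur subunit and the complex I gene with the most counts among nuclear members, measured 453, 427 and 488 CPM in mettl16-/- libraries and 439, 370.2 and 453 CPM in sibling libraries. The gap was widest in replicate 2, and the log2 fold change was 0.12 ± 0.10 (SE). ndufb11, an accessory subunit of the membrane arm, measured 78.4, 84.6 and 79.4 CPM in mettl16-/- libraries and 71.1, 69.8 and 77.9 CPM in sibling libraries. Every mettl16-/- library of ndufb11 was above every sibling library, with a log2 fold change of 0.15 ± 0.09 (SE).

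ndufa5, another accessory subunit, had the reverse order. It measured 29.8, 31.4 and 29.7 CPM in mettl16-/- libraries and 31.4, 34.2 and 32.5 CPM in sibling libraries, with a log2 fold change of -0.11 ± 0.10 (SE). mettl16-/- replicate 2 and sibling replicate 1 differed by less than 1 CPM. Over all tested members, 4 were non-overlapping above the siblings, where 3.46% of all genes were, and 1 was non-overlapping below, where 3.43% were. Besides ndufb11, those above included cox4i1 and the assembly factor ndufaf2.

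ndufv2 is a subunit of the part that binds NADH. It measured 74.4, 64.6 and 74.3 CPM in mettl16-/- libraries and 62.8, 56.1 and 71.3 CPM in sibling libraries. ndufb5 measured 75.8, 81.9 and 87.4 CPM in mettl16-/- libraries and 70.7, 71.7 and 79.6 CPM in sibling libraries. ndufa9, a subunit at the joint of both arms, measured 204, 189.6 and 211 CPM in mettl16-/- libraries and 193.8, 169.1 and 192.1 CPM in sibling libraries. Each of the 3 was above its sibling library in every replicate number while the groups overlapped, and their log2 fold changes were 0.17 ± 0.11, 0.14 ± 0.10 and 0.12 ± 0.09 (SE).

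Among the assembly factors, which help to build complex I and are not part of it, 5 of 8 had a fitted value above 0. ndufaf2 had 160, 196 and 182 counts in mettl16-/- libraries and 135, 175 and 164 counts in sibling libraries. After scaling these were 10.01, 10.9 and 10.9 CPM in mettl16-/- libraries and 7.96, 8.998 and 9.82 CPM in sibling libraries. ndufaf2 thus had the highest log2 fold change of the nuclear members named for a small p, 0.25 ± 0.15 (SE, 95% interval -0.08 to 0.58). The other 7 assembly factors had log2 fold changes from -0.11 for ndufaf4 to 0.18 for ndufaf7.

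Complex II, succinate dehydrogenase, is a Krebs cycle enzyme as well as a member of the chain and has no mitochondrially encoded subunit. Its 3 members had fitted values above 0. sdhb, the iron-sulfur subunit, measured 192.7, 174.6 and 218 CPM in mettl16-/- libraries and 178.8, 140.8 and 195.0 CPM in sibling libraries. sdha, the flavoprotein that oxidises succinate, measured 399.8, 379.1 and 480.4 CPM in mettl16-/- libraries and 390.5, 331.2 and 445.6 CPM in sibling libraries. In both genes replicate 2 was the lowest library of each group and held the widest gap between genotypes. The log2 fold change was 0.19 ± 0.13 (SE) for sdhb and 0.11 ± 0.13 (SE) for sdha. With the replicate block sdhb reached an edgeR adjusted p of 0.0886.

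In complex III, 7 of 9 nuclear members had a fitted value above 0, with a median of 0.07. uqcrc1, a core protein of the complex, measured 408, 415.6 and 493.7 CPM in mettl16-/- libraries and 401.6, 391.8 and 467.4 CPM in sibling libraries, a log2 fold change of 0.06 ± 0.11 (SE). The highest value of any member, 0.33 ± 0.75 (SE), belonged to uqcrb and rested on few reads, with 14, 7 and 12 counts in mettl16-/- libraries and 9, 1 and 17 counts in sibling libraries.

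Complex IV carries its nuclear subunits in sets of paralogs, several of which mark tissues in mammals. cox4i1, the general form of subunit IV, had 263.6, 268.5 and 269.8 CPM in mettl16-/- libraries and 247.2, 255.0 and 253.3 CPM in sibling libraries. These libraries hardly varied within a group and did not overlap, and the log2 fold change was 0.09 ± 0.08 (SE). cox4i2, the form linked to low oxygen in mammals, had 78, 97 and 109 counts in mettl16-/- libraries and 88, 116 and 146 counts in sibling libraries. cox4i1l had 57, 45 and 55 counts in mettl16-/- libraries and 62, 78 and 59 counts in sibling libraries. Both paralogs had fitted values below 0, -0.24 ± 0.23 for cox4i2 and -0.26 ± 0.23 for cox4i1l (SE), and without sibling replicate 3 the value of cox4i2 was 0.01.

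Without the block, the remaining paralogs of complex IV showed no difference beyond their errors. For cox6a1, ENSDARG00000022438 measured 417.2, 339.4 and 409.0 CPM in mettl16-/- libraries and 392.9, 324.7 and 379.6 CPM in sibling libraries, and ENSDARG00000054588 had 28, 40 and 30 counts in mettl16-/- libraries and 27, 28 and 32 counts in sibling libraries. Their log2 fold changes were 0.09 ± 0.11 and 0.23 ± 0.30 (SE). cox7a1, the muscle and heart form in mammals, had 5, 20 and 22 counts in mettl16-/- libraries and 16, 21 and 23 counts in sibling libraries. Its log2 fold change of -0.30 ± 0.50 (SE) rested on mettl16-/- replicate 1 and was 0.10 without it. The cox7a2 identifier ENSDARG00000053217 measured 108.6, 78.8 and 109.5 CPM in mettl16-/- libraries and 108.0, 78.4 and 100.8 CPM in sibling libraries. cox7a2l, which promotes supercomplexes in mammals, measured 57.9, 59.5 and 61.1 CPM in mettl16-/- libraries and 54.0, 58.9 and 60.6 CPM in sibling libraries. The log2 fold changes of cox7a2 and cox7a2l were 0.05 ± 0.16 and 0.04 ± 0.09 (SE), and with library totals they were -0.01 and -0.02.

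cox6b1 and cox6b2 had log2 fold changes of 0.00 ± 0.10 and 0.04 ± 0.14, and cox8a and cox8b had 0.01 ± 0.11 and -0.07 ± 0.19 (SE), each below its own standard error. With library totals those of cox6b1, cox6b2 and cox8a lay below 0. ndufa4, which was long assigned to complex I and is now placed in complex IV, measured 167.3, 176.7 and 187.7 CPM in mettl16-/- libraries and 159.2, 164.7 and 186.3 CPM in sibling libraries. ndufa4b measured 77.6, 74.2 and 55.9 CPM in mettl16-/- libraries and 73.9, 79.7 and 57.1 CPM in sibling libraries. ndufa4 was highest and ndufa4b lowest in replicate 3 of each group, so the paralogs were opposed in that replicate number. Their log2 fold changes were 0.06 ± 0.10 and -0.02 ± 0.16 (SE). The scarce ndufa4l2 had 3, 1 and 3 counts in mettl16-/- libraries and 6, 3 and 8 counts in sibling libraries. How reads shared between near-identical copies were counted is not given in the sources used here, so the levels of paralogs are uncertain.

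**Figure D5:**
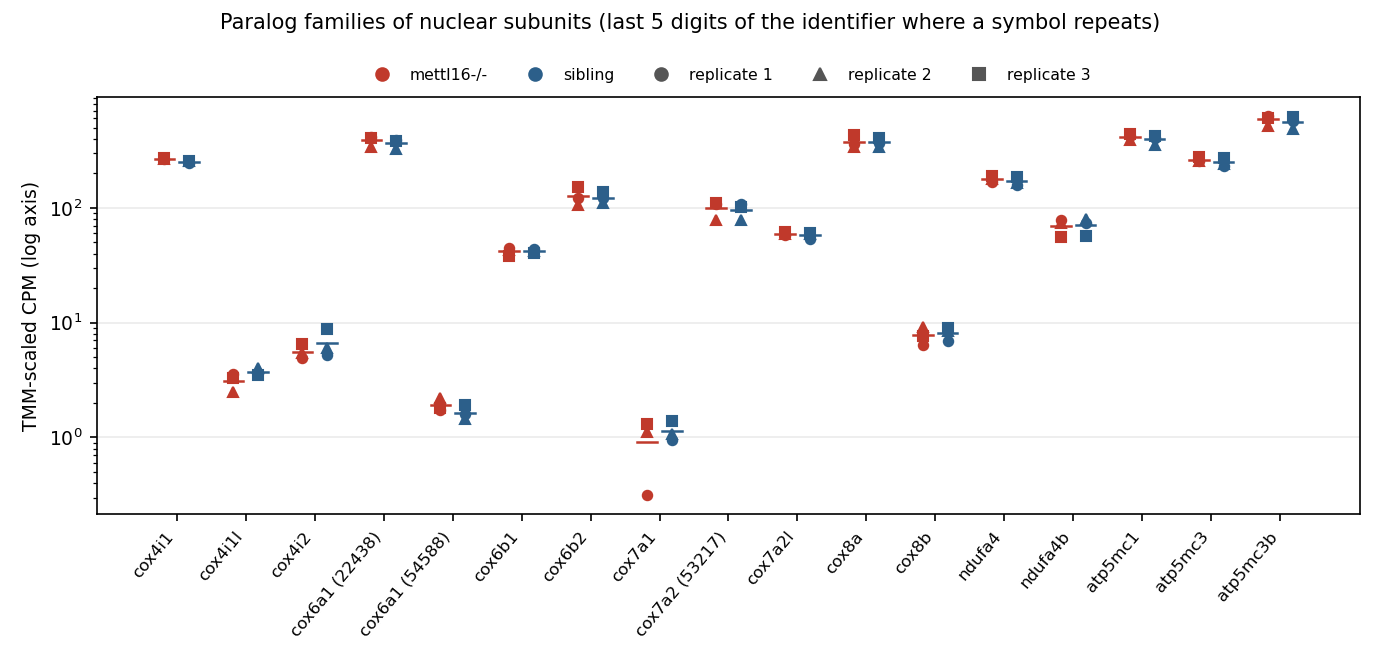
Levels of tested paralogs of nuclear subunits in complexes IV and V and of cox7a2l, in TMM-scaled CPM on a log axis, for mettl16-/- (red) and sibling (blue) libraries, with a symbol for each replicate number and a line for each group mean. The groups overlap for every gene shown except cox4i1, at 263.6 to 269.8 CPM in mettl16-/- libraries and 247.2 to 255.0 CPM in sibling libraries.

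Of the 18 nuclear genes of ATP synthase, 17 had a fitted value above 0 with TMM, with a median of 0.07. atp5f1b, the catalytic beta subunit, measured 2612, 2720 and 3225 CPM in mettl16-/- libraries and 2651, 2473 and 3001 CPM in sibling libraries. It was highest in replicate 3 of each group, its log2 fold change was 0.07 ± 0.11 (SE), and without mettl16-/- replicate 3 it was -0.02. Subunit c, the ring that turns as protons pass, has 3 tested genes. atp5mc1 measured 420.0, 390.2 and 438.6 CPM in mettl16-/- libraries and 407.8, 351.8 and 422.6 CPM in sibling libraries. atp5mc3 measured 253.4, 257.0 and 276.7 CPM in mettl16-/- libraries and 229.9, 242.3 and 273.5 CPM in sibling libraries. atp5mc3b measured 633.2, 519.9 and 611.6 CPM in mettl16-/- libraries and 576.0, 490.6 and 621.1 CPM in sibling libraries. The groups overlapped in each, with log2 fold changes of 0.08 ± 0.10, 0.08 ± 0.10 and 0.06 ± 0.12 (SE).

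The widest gap in complex V was that of atp5mf, a membrane subunit chosen after its values were seen. It measured 48.9, 30.9 and 45.03 CPM in mettl16-/- libraries and 48.5, 22.8 and 29.0 CPM in sibling libraries. The libraries of replicate 1 were alike, and the gap lay in replicates 2 and 3. Its log2 fold change was 0.32 ± 0.30 (SE), with an edgeR adjusted p of 0.171 under the replicate block. The inhibitors atp5if1a and atp5if1b, which stop ATP synthase from running backwards, had log2 fold changes of -0.01 ± 0.13 and 0.01 ± 0.10 (SE).

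The genes that serve the chain were counted from lists, and without the block none was called in edgeR or in DESeq2. The Krebs cycle list also held genes of pyruvate dehydrogenase and pyruvate carboxylase, which feed the cycle. Of 25 genes that copy or transcribe mitochondrial DNA or handle its RNA, 15 had a fitted value above 0. tfam, which packages mitochondrial DNA and starts its transcription, measured 19.3, 19.3 and 19.9 CPM in mettl16-/- libraries and 17.2, 18.8 and 18.3 CPM in sibling libraries, with a log2 fold change of 0.11 ± 0.11 (SE). polrmt, the mitochondrial RNA polymerase, had a log2 fold change of -0.02 ± 0.16 (SE). The count above 0 was 53 of 75 for the mitochondrial ribosome, 26 of 47 for assembly factors outside the symbol rule, 17 of 21 for the Krebs cycle, 8 of 17 for regulators of mitochondrial biogenesis, 9 of 20 for the mitochondrial and integrated stress response and 22 of 33 for glycolysis. With library totals these counts were 11 of 25, 32 of 75, 18 of 47, 12 of 21, 6 of 17, 5 of 20 and 15 of 33, in the same order from mitochondrial DNA to glycolysis. Of all genes tested, 49.1% had a fitted value above 0 with TMM and 34% with library totals. At an unadjusted p under 0.05 in edgeR there was 1 gene each in the mitochondrial ribosome, the Krebs cycle and the stress response lists and 0 in the other 4, where 2.17% of all genes passed. With the replicate block, where 9.2% of all genes passed, the count was 9 of 33 for glycolysis (8 higher in mettl16-/-, 1 lower), 6 of 21 for the Krebs cycle (4 higher, 2 lower) and 6 of 75 for the mitochondrial ribosome (4 higher, 2 lower). It was 3 of 20 for the stress response and 3 of 17 for the regulators of biogenesis (1 higher and 2 lower in each), 2 of 47 for assembly factors and 1 of 25 for mitochondrial DNA (all higher). The 2 lower in the Krebs cycle list were the pc identifiers of pyruvate carboxylase. After adjustment over all genes, 1 list gene was called with the block, the pkm identifier ENSDARG00000099860 of glycolysis (edgeR adjusted p = 0.0376). It measured 982, 908 and 1105 CPM in mettl16-/- libraries and 945, 743 and 913 CPM in sibling libraries. The other pkm identifier, ENSDARG00000099730, measured 178.8, 203.7 and 277.1 CPM in mettl16-/- libraries and 186.1, 193.9 and 265.7 CPM in sibling libraries. Its edgeR adjusted p was 0.946 under the block.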

How the data were processed

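RNA-seq counts of 3 mettl16-/- and 3 sibling libraries were used, grouped by the labels. Per the labels and the methods, reads were filtered with fastp 0.18.0, cleared of ribosomal RNA with Bowtie2 and mapped to GRCz11 with HISAT2; the notes also name CASAVA 1.8 and StringTie 1.3.1. The authors deposited whole-number counts per gene, not normalized. The counting tool, its use of strand and its treatment of reads with several positions are not given in the sources used here. Symbols came from a table of gene names, which held 23499 of 26375 identifiers; another 1178 were assembled loci. The order of the mitochondrial genes came from the RefSeq annotation of another assembly, used only for which genes neighbour each other.

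The genotypes were compared by the quasi-likelihood test of edgeR 4.0.16 in R 4.3.3, after TMM scaling and filterByExpr and with a robust fit, and Benjamini-Hochberg adjustment over 18487 genes at 0.05; the main design had no block. DESeq2 1.42.0, other scalings and filters, a replicate block and left-out libraries were alternatives. Libraries of the same replicate number deviated together (correlations 0.586, 0.312 and 0.518 across genes, against -0.446 to -0.0362 for other numbers), so the block is printed beside the counts of members and pathway lists that it changed. The deviations are from each group's mean, so positive values at equal numbers push the others below 0. For single genes, values are from the fit without the block unless the block is named, and their standard errors include the spread between replicate numbers. The labels do not say whether a number marks a shared clutch or day. The script was tested on simulated data. CPM are counts relative to the TMM-scaled library total. Levels of different genes were not compared, because no lengths of the files' build were used. The floor of 3 counts covers counting error only.

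The members and lists were chosen with earlier results of these data known. Named genes were all mitochondrial members, nuclear members called in either fit, the 10 nuclear members with the smallest unadjusted p, the most counted nuclear member of each complex and the cox4i, cox6a, cox6b, cox7a, cox8, ndufa4 and atp5mc families. Of the genes this rule names, 1 is not reported here. Markers of muscle, heart, blood, liver, intestine, neurons, epidermis and ionocytes were also looked up.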

Additional observations from a re-analysis of the deposited data

How the results depend on the processing

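No member had an adjusted p under 0.05 in any fit, and the lowest was 0.0521. Among all genes, edgeR called 23 (21 higher, 2 lower), DESeq2 60, DESeq2 with no filter 61 and library totals alone 15 (13 higher, 2 lower). With the replicate block the count was 193 (120 higher, 73 lower), also when it was combined with DESeq2 size factors or with scaling without mitochondrial genes, and 257 (95 higher, 162 lower) when combined with library totals. With single libraries left out the count ranged from 3 to 21, and without replicate 1, 2 or 3 of both groups it was 7, 0 and 0. Members with an unadjusted p under 0.05 numbered 0 in edgeR without a block, 20 with the replicate block and with that block under DESeq2 size factors or scaling without mitochondrial genes, 7 with the block under library totals, and 0 to 2 with libraries left out. The settings that leave out a replicate number of both groups, use library totals or join the block with another scaling were chosen after seeing the data.

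With library totals alone and with the replicate block plus library totals, the log2 fold changes turned below 0 for cox6b1 (-0.049 and -0.052), cox6b2 (-0.015 and -0.023), cox7a2 (-0.0055 and -0.0093), cox7a2l (-0.015 and -0.014) and cox8a (-0.043 and -0.046). Without replicate 1 of both groups cox6b1 was -0.020, without replicate 2 cox6b1 was -0.017 and ndufa4b 0.026, and without replicate 3 cox6b2 was -0.023, cox8a -0.018 and cox8b 0.014. Of 42 named members with a fit, 17 changed sign with a library or replicate number left out, 5 of them mitochondrial. These 5 changed sign only with a single library left out, which made the replicate numbers unequal between the groups. With a replicate number left out of both groups, their values lay between 0.03 and 0.11. With single libraries left out, the values ranged from -0.025 to 0.21 for mt-atp6, -0.018 to 0.21 for mt-co1, -0.057 to 0.15 for mt-co2, -0.045 to 0.173 for mt-co3, -0.058 to 0.21 for mt-nd1, -0.022 to 0.16 for atp5f1b, -0.023 to 0.15 for atp5mc3b, -0.39 to 0.0076 for cox4i2, -0.045 to 0.074 for cox6b1, -0.11 to 0.16 for cox6b2, -0.64 to 0.10 for cox7a1, -0.076 to 0.19 for cox7a2, -0.006 to 0.077 for cox7a2l, -0.089 to 0.084 for cox8a, -0.20 to 0.055 for cox8b, -0.15 to 0.111 for ndufa4b and -0.029 to 0.15 for uqcrc1. The cause was not tested. The median ranged from 0.03 to 0.17 for mitochondrial and from 0.0024 to 0.12 for nuclear members with single libraries left out, and the ratio difference from -0.098 to 0.16. Without replicate 1, 2 or 3 of both groups the ratio difference was -0.006, 0.040 and 0.043.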

Other observations

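All 4 liver markers had fitted values below 0 and 3 passed with the replicate block, where 1.04% of all genes did. fabp10a measured 7.7, 2.95 and 10.3 CPM in mettl16-/- libraries and 8.6, 5.96 and 17.9 CPM in sibling libraries. The log2 fold change of fabp10a was -0.63 ± 0.55 (SE), with an edgeR adjusted p of 0.0337 under the block. tfa, a transferrin made by liver, measured 1091, 1304 and 1405 CPM in mettl16-/- libraries and 1158, 1555 and 1717 CPM in sibling libraries, with an edgeR adjusted p of 0.0217 under the block. fgb, a fibrinogen chain, measured 207, 231 and 212 CPM in mettl16-/- libraries and 247, 278 and 237 CPM in sibling libraries, with an edgeR adjusted p of 0.0151 under the block. The 3 intestine markers also had fitted values below 0, and none passed with the block. alas2, which starts heme synthesis in red cells, measured 120.9, 106.8 and 84.2 CPM in mettl16-/- libraries and 92.2, 84.4 and 79.4 CPM in sibling libraries, with an edgeR adjusted p of 0.0177 under the block. The globins hbae1.1 and hbae3 had edgeR adjusted p of 0.908 and 0.797 under the block. In replicate 3 hbae1.1 was lower in mettl16-/- (66.7 against 90.8 CPM), and in replicate 2 hbae3 was (1665 against 1789 CPM). Without the block no marker passed. Fitted values were above 0 for 3 of 3 erythroid, 2 of 5 heart, 1 of 3 neuron, 3 of 4 epidermis and 1 of 2 ionocyte identifiers, and with library totals 0 of 5 heart and 2 of 4 epidermis identifiers were above 0.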
